A study of Ambystoma mexicanum with 12 samples.

Results

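The genes described here are the matrix metalloproteinases (MMPs), the ADAM, ADAMTS and ADAMTS-like families, the tolloid-like and meprin proteases, and the inhibitors of these enzymes, the TIMPs and RECK, in the regenerating limb of the axolotl. They were chosen by a rule on names: every gene of the count table whose reference symbol is that of such a protein was taken. No measured value entered the rule, but earlier results of these data were known when the members were chosen. The rule found 55 genes of the 36917 in the table, and 44 of them had at least 10 counts in at least 6 libraries and were tested. MMP21 and MMP9 were not analysed here. The 55 genes carry 46 symbols, because 7 symbols sit on more than 1 locus of the assembly.

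Each library held polyadenylated RNA of the mesenchyme of 1 right forelimb blastema of an albino axolotl (Ambystoma mexicanum), the mound of progenitor cells that forms on an amputated limb, with its epidermis removed by hand. Forelimbs were cut through the zeugopod (the forearm), and from 24 hours later the animals were treated systemically for 5 days with 25 nM Am580 (6 libraries), a synthetic agonist of the retinoic acid receptor alpha, or with DMSO, its solvent, in the same volume (6 libraries), with collection 24 hours after treatment ended. Retinoic acid signalling reprogrammes a distal blastema to a more proximal identity, so that limb segments are duplicated. The right limbs given Am580 were those whose left partner regrew with the most duplication, whereas the left partners of the DMSO limbs showed none, so the choice of animals and the treatment cannot be told apart.

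MMPs cut collagens and other proteins of the extracellular matrix, and their membrane-type members work at the cell surface, where MMP14 with TIMP2 as a bridge activates the precursor of MMP2. ADAM proteases mainly release the outer parts of membrane proteins, ADAMTS enzymes trim procollagens, proteoglycans and fibrillin microfibrils, and several ADAMs and all ADAMTS-like proteins lack catalytic activity. In salamander limbs these enzymes are known for opening the stump matrix and keeping it in a loose state as the blastema forms. These roles come mainly from mammals.

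Libraries held between 27226012 and 43793138 counts in total, and levels are given as CPM, counts scaled to the TMM-adjusted depth of the library. The labelled tissue was present: 11 markers of connective tissue and blastema mesenchyme were tested, and 2 of them (MSX1 and MSX2) fell. Summed over all 12 loci of that list, tested or not, levels were 10801.7 to 19345.3 CPM with DMSO and 9167.9 to 15906.9 CPM with Am580. Other cells were present too. Muscle markers summed to 9732.2 to 25212.4 CPM with DMSO and 6869.6 to 23537.7 CPM with Am580, and 1 of 11 tested muscle loci (MYOG) rose. All 10 tested osteoclast markers fell with Am580, by a median of 2.34 on the log2 scale. Summed levels over all 12 osteoclast loci, tested or not, were 2708.9 to 4153.9 CPM with DMSO and 458.5 to 950.5 CPM with Am580. None of the 10 tested markers had a mean of 0. Among 8 tested epidermal markers, 2 fell. All 10 epidermal loci, tested or not, summed to 539.6 to 723.5 CPM with DMSO and 385.5 to 511.1 CPM with Am580. Most of that sum was KRT18, at a mean of 594.7 CPM with DMSO and 435.5 CPM with Am580 with overlap between treatments, and 6 of the 8 did not pass the test. Of 8 tested macrophage loci, 3 rose and 3 fell. Their part in the results below was not tested, and in bulk tissue fewer cells of a type and less RNA per cell cannot be told apart.

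Of the 44 tested members, 5 rose with Am580 (11.4%) and 4 fell (9.09%). ADAMTS3, ADAM11, ADAMTS6, TIMP3 and ADAMTS7 rose, and MMP14, TIMP2, ADAMTSL2 and ADAM23 fell. A gene was called at an adjusted p under 0.05 in edgeR's quasi-likelihood test, with Benjamini-Hochberg adjustment over all 25879 genes tested, of which 14.1% were called in either direction, 6.93% higher and 7.21% lower. In 4 members (9.09%), ADAMTS3, ADAM11, ADAMTSL2 and ADAM23, the libraries of both treatments did not overlap, against 8.6% of all genes. The median log2 fold change was 0.13 over the 44 members, 28 of which lay above 0 and 16 below, and 0.00432 over all genes tested. The 9 calls are 20.5% of the members tested, and no direction was common to the family.

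**Figure D1:**
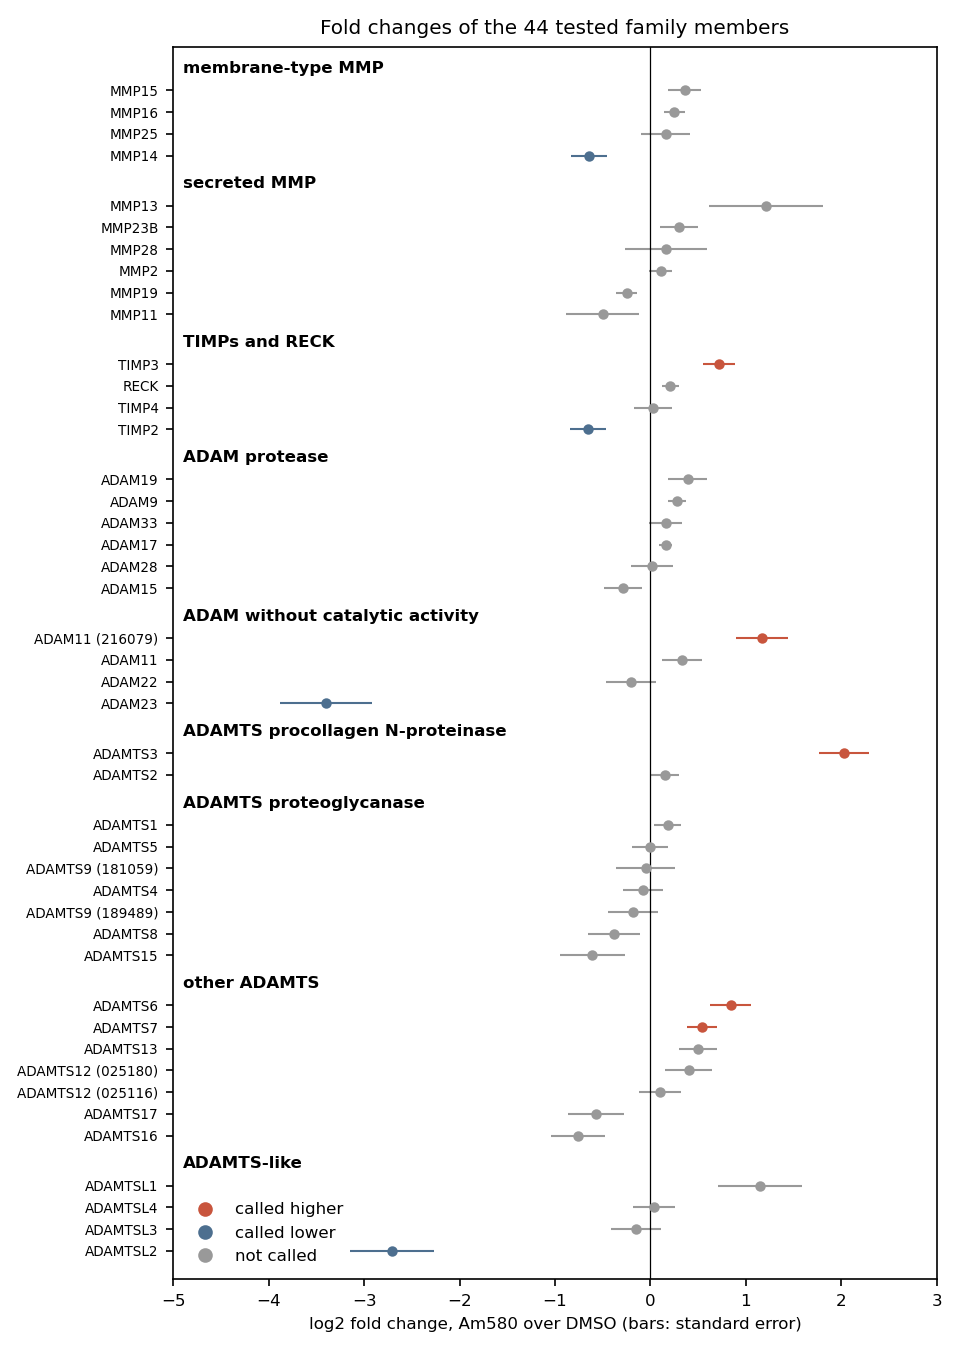
Log2 fold change (Am580 over DMSO, horizontal axis) of the 44 tested members, ordered by role, with bars for the standard error and numbers in brackets for loci that share a symbol. Called members (5 higher in red, 4 lower in blue) lie in different roles, and the values reach from -3.40 (ADAM23) to 2.03 (ADAMTS3).

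Among the membrane-type MMPs, MMP14 fell and its 3 tested relatives did not pass the test. MMP14, the main collagen-cutting enzyme of the cell surface (locus MSTRG.7756, scaffold AMEXG_0030001676, positions 2341889 to 2503816, plus strand, of AmexG_v3.0.0), stood at 932.5, 1410.1 and 2396.9 CPM (lowest, median and highest) with DMSO and at 791.7, 952.4 and 992.8 CPM with Am580. All Am580 libraries were below the DMSO median, but DMSO replicate 1 lay within the Am580 range, and DMSO replicate 3 was far above the rest. The log2 fold change was -0.64 (SE 0.19, edgeR's adjusted p = 0.0405, n = 6 and 6). Without DMSO replicate 3 it was -0.43 (adjusted p = 0.0444 in edgeR), and the call was lost when any 1 of 9 other libraries was left out, with adjusted p up to 0.0788.

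MMP15 and MMP16, also anchored in the membrane by a transmembrane segment, had log2 fold changes of 0.36 (SE 0.17) and 0.25 (SE 0.11), with adjusted p of 0.213 and 0.176 in edgeR. MMP15 reached 29.7, 33.9 and 41.1 CPM with DMSO and 24.4, 45.1 and 57.3 CPM with Am580. Of the Am580 libraries of MMP15, 5 were above every DMSO library and replicate 5 was below them all. Without that library the log2 fold change was 0.49 and passed the test (edgeR's adjusted p = 0.0155). This was the only 1 of 20 alternative analyses in which MMP15 passed, and adjusted p in edgeR otherwise reached 0.355. MMP16 was at 9.78 to 14.2 CPM with DMSO and 12.3 to 16.1 CPM with Am580, and its 6 Am580 libraries all lay above the DMSO median. MMP25, held in the membrane by a lipid anchor, ranged from 23.3 to 70.6 CPM with DMSO and from 31.9 to 61.2 CPM with Am580 (log2 fold change 0.16, SE 0.26, adjusted p = 0.774 in edgeR). MMP24, known from neurons, had at most 9 counts in a library and was not tested.

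The 6 tested members among the MMPs that are released from the cell did not pass the test in either direction. MMP9 and MMP21 were not among them, and the authors report Mmp9 as lower and Mmp21 as higher with Am580. MMP2, the gelatinase that MMP14 activates (MSTRG.3019, scaffold AMEXG_0030000561, positions 4829991 to 5226036, minus strand), had 288.1, 361.9 and 527.8 CPM with DMSO and 378.1, 405.4 and 448.6 CPM with Am580. Its 6 Am580 libraries lay above the DMSO median but inside the DMSO range, and the log2 fold change was 0.11 (SE 0.12, edgeR's adjusted p = 0.663). MMP19, which cuts basement membrane proteins, had 89.8 to 119.7 CPM with DMSO and 67.6 to 107.2 CPM with Am580 (log2 fold change -0.25, SE 0.11, adjusted p = 0.194 in edgeR). MMP23B, freed from its membrane form by a furin-type cut, stood at 2.66 to 4.35 CPM and 2.29 to 5.84 CPM, with a log2 fold change of 0.30 (SE 0.20).

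MMP13, a collagenase, and MMP11, a protease that leaves the cell already active, varied widely among the Am580 blastemas. MMP13 (MSTRG.18494) was at 2.93, 9.90 and 14.7 CPM with DMSO and at 3.78, 12.3 and 56.0 CPM with Am580. The Am580 libraries replicate 1 at 56.0 CPM and replicate 6 at 41.6 CPM stood above all others, and the other 4 lay between 3.78 and 14.3 CPM, inside the DMSO range. MMP11 (MSTRG.28056) was lowest in the same 2 libraries, at 6.44 and 5.23 CPM. The remaining Am580 libraries had 14.9 to 34.6 CPM of MMP11, beside 15.3, 21.6 and 29.4 CPM with DMSO. Neither gene passed the test: the log2 fold changes were 1.21 for MMP13 (SE 0.60, adjusted p = 0.234 in edgeR, and 0.69 without Am580 replicate 1) and -0.50 for MMP11 (SE 0.38, adjusted p = 0.469 in edgeR). Per kilobase of exon, MMP13 was above MMP11 in 0 of 6 DMSO libraries and in 3 of 6 Am580 libraries.

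**Figure D2:**
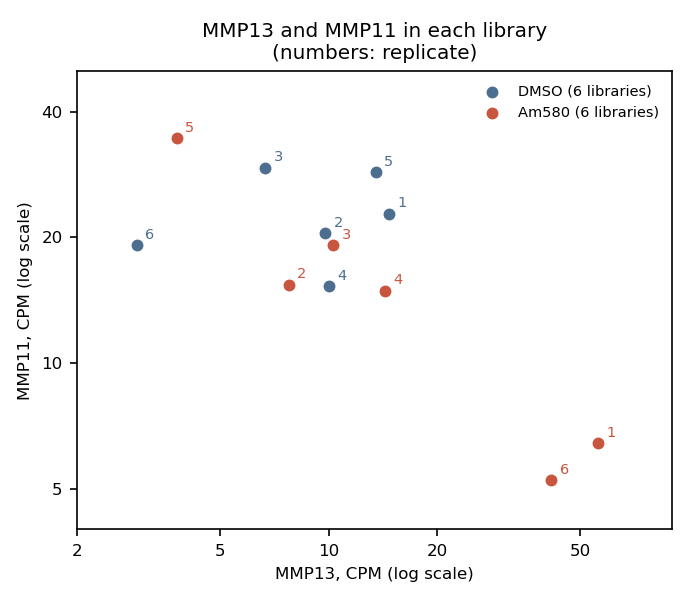
Levels of MMP13 (horizontal) and MMP11 (vertical) in the 12 libraries, in CPM on log axes, with replicate numbers beside the points. Am580 replicates 1 and 6 lie apart, at 56.0 and 41.6 CPM of MMP13 and 6.44 and 5.23 CPM of MMP11, and the other libraries of both treatments overlap.

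MMP28, the epilysin first described in skin, is carried by 3 loci, and 1 of them (MSTRG.19012, scaffold AMEXG_0030006128, positions 359425 to 617193, minus strand) was tested. It had 0.648 to 3.40 CPM with DMSO and 0.734 to 3.93 CPM with Am580, a spread over libraries far wider than the difference between treatments (log2 fold change 0.16, SE 0.43, adjusted p = 0.866 in edgeR). Another MMP28 locus lies on the opposite strand and shares 626 bases with it. It had at most 6 counts in a library, and the counting kept the strands apart. An unnamed gene of 3 exons on the minus strand overlaps this second locus by 71729 bases. That gene fell, from a mean of 1.04 CPM with DMSO to 0.583 CPM with Am580 (log2 fold change -0.84, edgeR's adjusted p = 0.0477). The authors report Mmp28 as lower with Am580. Whether the unnamed gene is part of MMP28 was not tested.

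The inhibitors moved in opposite directions, with TIMP2 lower, TIMP3 higher, and TIMP4 and RECK not passing the test. TIMP2, which inhibits MMP2 and also carries it to MMP14 (MSTRG.9018, scaffold AMEXG_0030002061, positions 19843 to 180502, plus strand), was at 345.0, 558.9 and 864.0 CPM with DMSO and at 297.9, 360.7 and 420.3 CPM with Am580. As with MMP14, DMSO replicate 1 lay within the Am580 range and DMSO replicate 3 was the highest. The log2 fold change was -0.65 (SE 0.19, edgeR's adjusted p = 0.0359). Without DMSO replicate 3 it was -0.50 and the call was lost (adjusted p = 0.0665 in edgeR), as it was when any 1 of 7 other libraries was left out, with adjusted p up to 0.0792. Scaling by library size alone also ended the calls of MMP14 and TIMP2 (edgeR's adjusted p = 0.0805 and 0.0655), as did limma-voom (adjusted p = 0.0566 and 0.0514), and upper-quartile scaling ended that of MMP14 (adjusted p = 0.0538 in edgeR).

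TIMP3, the inhibitor that binds to the matrix and also blocks ADAM17 and the aggrecan-cutting ADAMTS enzymes (MSTRG.8946, scaffold AMEXG_0030002040, positions 3714267 to 3781012, minus strand), rose. It had 21.2, 30.2 and 36.9 CPM with DMSO and 31.8, 51.6 and 63.5 CPM with Am580. Only Am580 replicate 5 lay within the DMSO range. The log2 fold change was 0.72 (SE 0.17, edgeR's adjusted p = 0.0098), and TIMP3 passed the test in all 20 alternative analyses. Its whole span lies opposite a second gene on the plus strand (symbol LOC103777074), which moved the other way, with a log2 fold change of -1.38 (edgeR's adjusted p = 0.000248).

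TIMP4 was at 20.7, 26.1 and 40.4 CPM with DMSO and at 21.9, 28.7 and 36.9 CPM with Am580, and the treatments differed by 0.03 on the log2 scale (SE 0.20, adjusted p = 0.954 in edgeR). RECK, a membrane-anchored protein that restrains MMP14 and MMP2, was at 27.0, 33.8 and 40.8 CPM with DMSO and at 37.6, 38.8 and 42.2 CPM with Am580. Its Am580 libraries were tightly grouped and all above the DMSO median (log2 fold change 0.21, SE 0.09, adjusted p = 0.169 in edgeR). Per kilobase of exon, TIMP2 stood at 60.2 to 150.8 CPM with DMSO and 52.0 to 73.3 CPM with Am580, above TIMP3 (4.67 to 8.13 and 7.01 to 14.0 CPM per kilobase) in all 12 libraries.

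**Figure D3:**
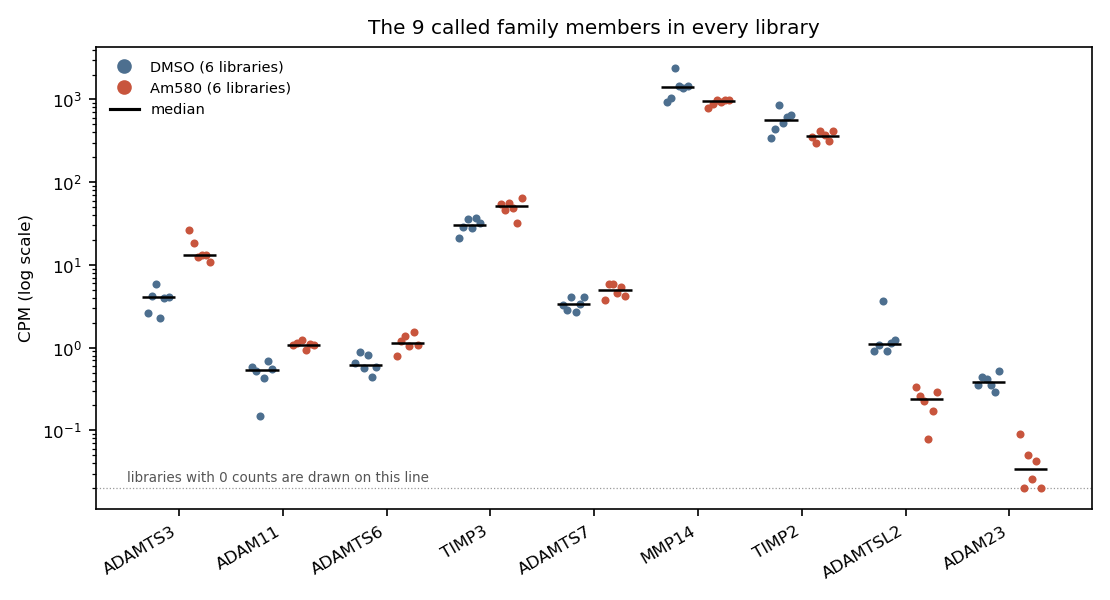
CPM on a log axis of the 9 called members in the 6 DMSO (blue) and 6 Am580 (red) libraries, with black lines for the medians; 2 Am580 libraries without a count of ADAM23 are drawn on the dotted line. ADAMTS3, ADAM11, ADAMTSL2 and ADAM23 show no overlap between treatments, and DMSO replicate 3 is the highest DMSO library of MMP14, TIMP2 and ADAMTSL2.

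MMP14, TIMP2 and MMP2 work together, so their proportions were compared within libraries; these comparisons were chosen after the levels had been seen. The ratio of MMP14 to TIMP2 counts was 2.21, 2.55 and 2.83 with DMSO (lowest, median and highest) and 2.26, 2.45 and 3.16 with Am580. These ranges overlapped widely, and the mean log2 ratios differed by 0.03 (p = 0.768, exact two-sided permutation test over 924 arrangements). The ratio of MMP2 to MMP14 counts was 0.220, 0.275 and 0.326 with DMSO and 0.402, 0.426 and 0.567 with Am580. Every Am580 library was above every DMSO library, the mean log2 ratio was higher by 0.70, and the exact permutation p of 0.00216 is the smallest that 6 against 6 can give. Leaving out any 1 library gave 0.63 to 0.75. The ratio is built from the MMP14 and MMP2 levels given above, so it is no separate evidence for the fall of MMP14. DMSO replicate 3, the highest of its treatment for all 3 genes, had a ratio of MMP14 to TIMP2 of 2.77, inside the range of the others, and the lowest ratio of MMP2 to MMP14 of all 12 libraries (0.220, the next being 0.240).

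**Figure D4:**
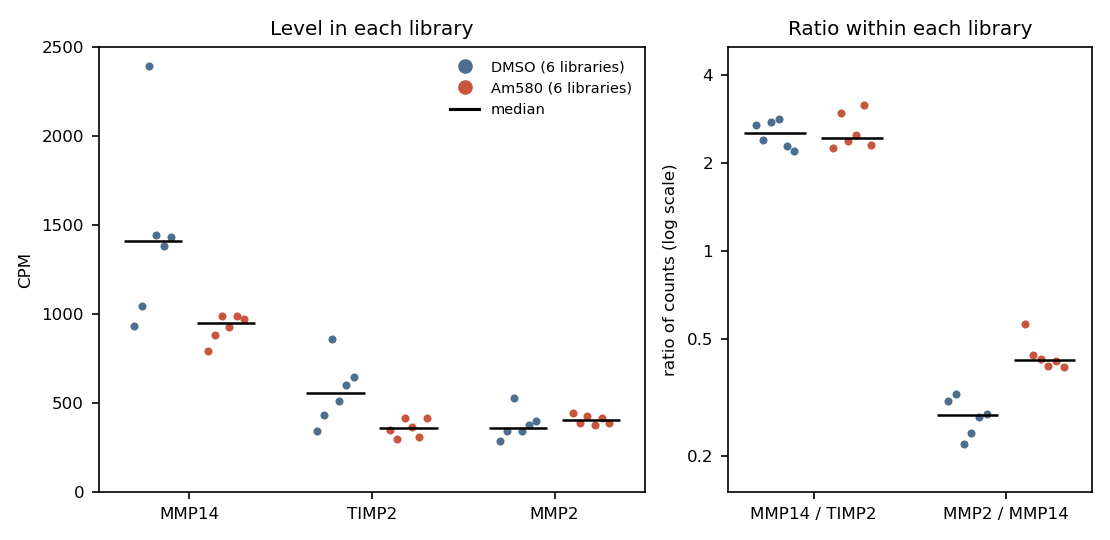
Left, CPM of MMP14, TIMP2 and MMP2 in each library (linear axis from 0); right, ratios of counts within each library (log axis), with black lines for the medians. The ratio of MMP14 to TIMP2 overlaps between treatments (2.21 to 2.83 and 2.26 to 3.16), and that of MMP2 to MMP14 does not (0.220 to 0.326 and 0.402 to 0.567).

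Per kilobase of exon, which allows levels of different genes to be set side by side as far as the gene models are complete, MMP14 led the family with a mean of 241.0 CPM per kilobase over the 12 libraries, followed by TIMP2 (81.2), MMP2 (73.2) and MMP19 (31.2). MMP14 was above TIMP2 and MMP2 above MMP19 in all 12 libraries. TIMP2 was above MMP2 in 6 of 6 DMSO libraries but in 1 of 6 Am580 libraries. MMP14, TIMP2 and MMP2 together made up 64.9 to 80.0% of the summed per-kilobase level of the family with DMSO (median 72.2%) and 61.5 to 64.9% with Am580 (median 63.8%). MMP14 alone held 40.6 to 53.0% with DMSO and 32.4 to 38.6% with Am580, whereas MMP2 held 10.5 to 12.2% and 13.3 to 16.7%. These are parts of a common sum, so a smaller part for MMP14 enlarges the parts of the others. MMP2 itself did not pass the test (log2 fold change 0.11, adjusted p = 0.663 in edgeR).

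MMP19 was above MMP11 in all 12 libraries, although their ranges overlapped (21.6 to 38.3 and 3.39 to 22.4 CPM per kilobase), and above MMP13 in 6 of 6 DMSO and 4 of 6 Am580 libraries. Below MMP19 the order of the means was not firm. MMP11 (12.5 CPM per kilobase), MMP13 (12.4), ADAMTS4 (12.1), ADAM17 (9.74), RECK (8.92) and TIMP3 (8.86) followed, and each neighbour in this order exceeded the next in only 4 to 10 of 12 libraries. The ranges of these neighbours over libraries overlapped in every case. Levels of genes with short or partial models, such as RECK with 2 exons and MMP16 with 3, rest on the part of the transcript that the assembly holds.

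**Figure D5:**
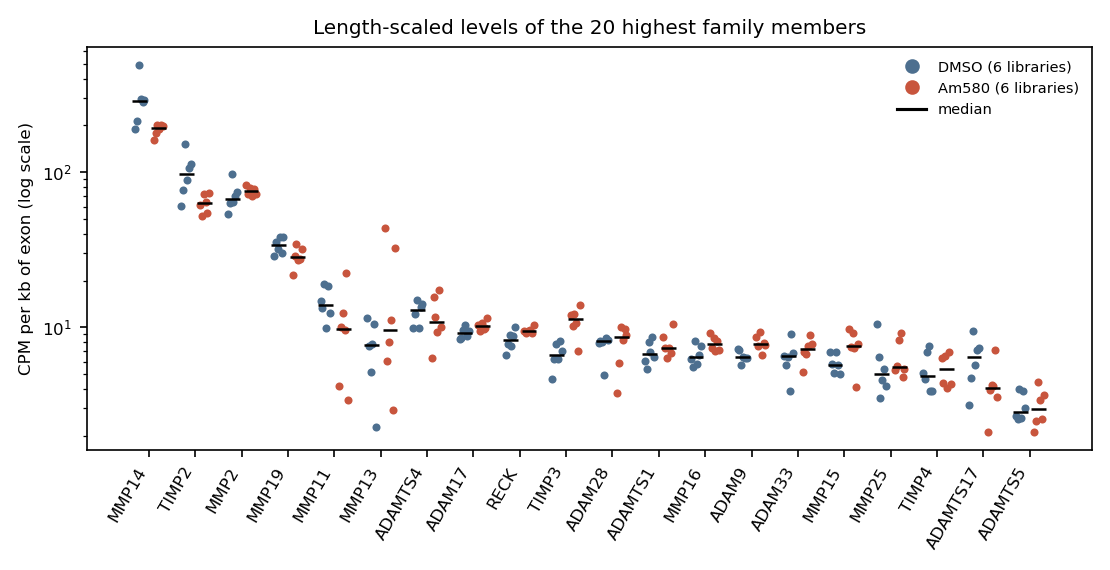
CPM per kilobase of exon (log axis) of the 20 members with the highest mean, in 6 DMSO and 6 Am580 libraries, with black lines for the medians. MMP14, TIMP2 and MMP2 lie above the rest, TIMP2 is above MMP2 in 6 of 6 DMSO and 1 of 6 Am580 libraries, MMP13 exceeds MMP19 in 2 Am580 libraries, and the members from MMP11 on overlap their neighbours.

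The 6 tested ADAM proteases, which shed membrane proteins, did not pass the test, with log2 fold changes between -0.29 and 0.39. ADAM17, the enzyme that releases TNF and several ligands of the EGF receptor (MSTRG.8466), was at 45.5, 49.2 and 55.8 CPM with DMSO and at 50.8, 54.6 and 62.0 CPM with Am580 (log2 fold change 0.16, SE 0.07, adjusted p = 0.202 in edgeR). ADAM9, a widely expressed sheddase (MSTRG.9978), came nearest to the threshold. It was at 58.1, 65.4 and 74.0 CPM with DMSO and at 67.7, 79.7 and 94.7 CPM with Am580. All Am580 libraries of ADAM9 lay above the DMSO median, and the log2 fold change was 0.28 (SE 0.09, adjusted p = 0.0533 in edgeR). It passed in 6 of 20 alternative analyses.

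ADAM28, found mainly on lymphocytes and epithelial cells in mammals (MSTRG.4572), was at 20.6, 33.7 and 35.6 CPM with DMSO and at 15.7, 35.8 and 41.7 CPM with Am580. DMSO replicate 4 and Am580 replicate 1 were well below the others of their treatment, and the log2 fold change was 0.02 (SE 0.22). ADAM33, the ADAM with the longest gene model (14694 bases of exon), was at 57.5 to 132.2 CPM with DMSO and 76.2 to 130.9 CPM with Am580. ADAM19 was at 7.16 to 11.9 CPM and 6.35 to 14.6 CPM. ADAM15 was at 2.34 to 4.26 CPM and 1.71 to 3.37 CPM, with all Am580 libraries below the DMSO median. The treatments overlapped in all 3 genes, whose adjusted p in edgeR were 0.638, 0.239 and 0.401.

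The ADAMs without catalytic activity held both the largest fall of the family and 1 of its largest rises, all at low levels. ADAM23, a cell adhesion protein known from the nervous system (scaffold AMEXG_0030006960, positions 29407 to 749901, plus strand), had 11 to 17 counts in every DMSO library and 0 to 3 in every Am580 library, 8 in all. Its levels were 0.289, 0.386 and 0.524 CPM with DMSO and 0, 0.0343 and 0.0915 CPM with Am580, without overlap. It fell by 3.40 on the log2 scale in the fit (SE 0.48, edgeR's adjusted p = 0.00037), a value that depends on the prior count. With every Am580 library set to 3 counts, the highest count seen there, the mean level was 5.08-fold lower than with DMSO. This value leaves out counting error in both treatments. ADAM23 passed in all 20 alternative analyses.

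ADAM11, a relative of ADAM23 that is also known from neurons, is carried by 2 tested loci on different scaffolds. The locus with 26 exons (scaffold AMEXG_0030000674, positions 358847 to 714752, minus strand) rose, at 0.148, 0.536 and 0.683 CPM with DMSO and 0.940, 1.09 and 1.24 CPM with Am580. The treatments did not overlap, and the log2 fold change was 1.17 (SE 0.27, edgeR's adjusted p = 0.0109). The other locus, with 5 exons, was at 0.679 to 1.63 CPM and 1.04 to 1.38 CPM (log2 fold change 0.33, SE 0.21, adjusted p = 0.372 in edgeR), and lies wholly within the span of SERPINH1 on the opposite strand. SERPINH1 had means of 252.5 CPM with DMSO and 287.8 CPM with Am580. Whether SERPINH1 reads counted on the wrong strand add to this ADAM11 locus was not tested. ADAM22, which forms receptor complexes with ADAM23 at synapses, was at 0.369 to 1.04 CPM with DMSO and 0.487 to 0.955 CPM with Am580 (log2 fold change -0.20, SE 0.26, adjusted p = 0.708 in edgeR).

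ADAMTS3, the N-proteinase of procollagen that also trims VEGFC (MSTRG.2180, scaffold AMEXG_0030000398, positions 2563847 to 3242586, minus strand, 22 exons), had the largest rise of the family. It stood at 2.31, 4.05 and 5.83 CPM with DMSO and at 10.7, 13.2 and 26.4 CPM with Am580. The lowest Am580 library was well above the highest DMSO library, and replicates 1 and 2 were the highest of the treated ones. The log2 fold change was 2.03 (SE 0.26, edgeR's adjusted p = 0.000186), and leaving out any 1 library gave 1.81 to 2.18.

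ADAMTS2, the other N-proteinase of the family, did not pass the test, at 5.00 to 9.95 CPM with DMSO and 6.66 to 9.72 CPM with Am580 (log2 fold change 0.15, SE 0.15, adjusted p = 0.621 in edgeR). Per kilobase, ADAMTS2 was above ADAMTS3 in 6 of 6 DMSO libraries and in 3 of 6 Am580 libraries. BMP1, the astacin protease that removes the other end of the procollagens, was not among the 55 genes but on a list of regulators. It rose from 98.5 ± 18.4 CPM (SD, n = 6) to 207.2 ± 17.4 CPM (SD, n = 6) without overlap, with a log2 fold change of 1.07 (SE 0.13, edgeR's adjusted p = 7.54e-05). PCOLCE, which speeds up BMP1, rose from 105.7 ± 23.1 to 144.9 ± 8.28 CPM (SD, n = 6 each), with a log2 fold change of 0.45 (edgeR's adjusted p = 0.0251). The treatments overlapped for PCOLCE, at 80.9 to 147.2 CPM with DMSO and 132.5 to 156.8 CPM with Am580. The tolloid-like relatives of BMP1 among the 55 genes, 2 loci named TLL2, had at most 7 counts in a library.

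The 7 tested loci of the proteoglycan-cutting ADAMTS enzymes, which cleave aggrecan and versican, did not pass the test, with log2 fold changes between -0.61 and 0.18. ADAMTS4 was at 84.9, 110.1 and 128.1 CPM with DMSO and at 54.6, 93.3 and 149.1 CPM with Am580 (log2 fold change -0.08, SE 0.21). The Am580 range of ADAMTS4 spanned the DMSO range on both sides. ADAMTS1 was at 29.9, 37.0 and 47.7 CPM with DMSO and at 35.3, 40.7 and 58.3 CPM with Am580 (log2 fold change 0.18, SE 0.14). ADAMTS5 lies 563129 bases from ADAMTS1 on the same strand of scaffold AMEXG_0030001649, and both had close levels in the 2 treatments, with a log2 fold change of 0.00 (SE 0.19) for ADAMTS5. ADAMTS15 had 1.66 to 2.30 CPM in 5 DMSO libraries and 6.88 CPM in replicate 6, and 1.49 to 2.33 CPM with Am580. ADAMTS8 was at 3.79 to 12.1 CPM and 3.97 to 8.52 CPM, and the 2 ADAMTS9 loci, 286279 bases apart on the same strand, stayed under 1 CPM in every library.

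Among the other ADAMTS enzymes 2 of 7 tested loci rose, both at low levels. Over all genes tested 6.93% were called higher, and 7 loci are too few to compare with that share. ADAMTS6, whose substrates in mice are fibrillins and related microfibril proteins, was at 0.446, 0.617 and 0.886 CPM with DMSO and at 0.793, 1.15 and 1.55 CPM with Am580. Only Am580 replicate 1 lay within the DMSO range, and the log2 fold change was 0.84 (SE 0.21, edgeR's adjusted p = 0.0178). The locus holds 496 bases in 2 exons, so this value rests on 17 to 73 counts per library. ADAMTS7, which cuts cartilage oligomeric matrix protein (scaffold AMEXG_0030000434, positions 1454672 to 2274591, minus strand), was at 2.69, 3.36 and 4.10 CPM with DMSO and at 3.75, 4.98 and 5.93 CPM with Am580. Its lowest Am580 library lay within the DMSO range, and the log2 fold change was 0.54 (SE 0.16, edgeR's adjusted p = 0.0358). The ADAMTS7 call was lost when any 1 of 7 libraries was left out, with adjusted p up to 0.0829.

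ADAMTS17, tied to fibrillin microfibrils in humans, had 6.88, 14.1 and 20.8 CPM with DMSO and 4.67, 8.93 and 15.7 CPM with Am580. These ranges overlapped widely (log2 fold change -0.57, SE 0.29, adjusted p = 0.237 in edgeR). ADAMTS12, the closest relative of ADAMTS7, is carried by 2 loci that lie 227 bases apart on the same strand, and their log2 fold changes were 0.40 (SE 0.25) and 0.10 (SE 0.22). The other 2 loci of this group, ADAMTS13 and ADAMTS16, did not pass the test, with log2 fold changes of 0.50 (SE 0.20) and -0.76 (SE 0.28). ADAMTS13, which cuts von Willebrand factor, was at 4.85 to 9.86 CPM with DMSO and 6.30 to 14.0 CPM with Am580. ADAMTS16 was at 2.34 to 4.50 CPM and 0.888 to 2.76 CPM, with every Am580 library below the DMSO median (adjusted p = 0.0927 in edgeR).

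Of the 4 ADAMTS-like genes, whose proteins resemble ADAMTS enzymes without the protease domain, ADAMTSL2 fell and the rest did not pass the test. ADAMTSL2, a partner of fibrillin and of the carriers of latent TGF-beta (scaffold AMEXG_0030006681, positions 2702337 to 2856366, minus strand), was at 0.904, 1.10 and 3.70 CPM with DMSO and at 0.0783, 0.243 and 0.336 CPM with Am580. The treatments did not overlap, and DMSO replicate 3 was far above the other DMSO libraries. ADAMTSL2 had 28 to 125 counts in the DMSO libraries and 3 to 12 in the Am580 libraries. The size of its fall thus rests on few counts. The log2 fold change was -2.71 (SE 0.44, edgeR's adjusted p = 0.000915), and without DMSO replicate 3 it was -2.20 and still passed (adjusted p = 0.000385 in edgeR). ADAMTSL1 ranged from 0.130 to 1.87 CPM with DMSO and from 0.885 to 2.60 CPM with Am580. Its Am580 libraries all lay above the DMSO median (log2 fold change 1.15, SE 0.44, adjusted p = 0.109 in edgeR). ADAMTSL3 and ADAMTSL4 stayed within 0.15 of 0 on the log2 scale, at -0.15 (SE 0.26) and 0.04 (SE 0.22).

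DMSO replicate 3 was the highest DMSO library for 18 of the 44 tested members, MMP14, TIMP2, MMP2 and ADAMTSL2 among them. Among the DMSO libraries it also had the highest summed level of the connective tissue and blastema markers (19345.3 CPM, against a median of 12573.4 CPM). The same held for the matrix substrates (22079.0 against 14813.7 CPM) and the cartilage markers (2067.9 against 852.8 CPM). These sums are not independent. The connective tissue and matrix lists share COL3A1, TNC, DCN and LUM, and COL3A1 alone had a mean of 8742.5 CPM with DMSO. The matrix and cartilage lists share ACAN. Replicate 1 of each treatment was the lowest of its group for 14 members and had the highest summed level of muscle markers of its treatment, 25212.4 CPM with DMSO and 23537.7 CPM with Am580. The part of tissue makeup in the members' levels was not tested.

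The genes that act on the family were taken from lists of symbols, and their calls were not followed through the alternative analyses. In the plasminogen system, which activates several MMP precursors, 1 of 9 tested genes rose and 2 fell. PLAT, the tissue-type activator, rose, at 69.9 to 86.1 CPM with DMSO and 161.9 to 237.2 CPM with Am580 (log2 fold change 1.39, SE 0.10, edgeR's adjusted p = 1.35e-06). PLAU, the urokinase-type activator, fell, at 89.2 to 183.7 CPM with DMSO and 26.9 to 56.7 CPM with Am580 (log2 fold change -1.52, SE 0.22, edgeR's adjusted p = 0.000383), and its receptor PLAUR fell too (log2 fold change -0.60, edgeR's adjusted p = 0.0282). Both activators showed no overlap between treatments and moved in opposite directions, whereas the treatments overlapped for PLAUR.

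Of the 7 tested proprotein convertases, which remove the propeptides of membrane-type MMPs, ADAMs and ADAMTSs, PCSK5 rose (log2 fold change 0.97, SE 0.22, edgeR's adjusted p = 0.00837) and FURIN fell (-0.49, SE 0.13, edgeR's adjusted p = 0.0194). FURIN had 168.0 to 224.9 CPM with DMSO and 92.3 to 156.6 CPM with Am580, without overlap. The treatments overlapped for PCSK5, at 3.84 to 5.92 CPM with DMSO and 5.72 to 12.8 CPM with Am580. Among the 10 tested loci of partners of ADAM10 and ADAM17, 1 of the 3 loci named RHBDF1 rose (log2 fold change 1.48, SE 0.10, edgeR's adjusted p = 1.02e-06) and RHBDF2 fell (-0.69, SE 0.19, edgeR's adjusted p = 0.0289). Both encode inactive rhomboids that carry ADAM17 to the cell surface. Levels of RHBDF2 overlapped between treatments, and those of the RHBDF1 locus that rose did not.

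Among 13 tested loci of regulators and clearance receptors, 4 rose and 1 fell. BMP1 and PCOLCE rose as given above, with SPARC, a matrix-binding protein, at a log2 fold change of 0.42 and 1 of 2 loci of CAV1, a caveolar coat protein, at 0.64. SPARC overlapped between treatments, and this CAV1 locus did not. CD44, a hyaluronan receptor that holds MMP14 at the cell surface, fell, at 36.1 to 75.1 CPM with DMSO and 4.61 to 8.92 CPM with Am580 (log2 fold change -2.75, SE 0.21, edgeR's adjusted p = 2.58e-06). Of 17 tested membrane proteins that ADAM10 or ADAM17 can shed, 5 rose (TNFRSF1B, JAG1, APP and IL6R among them) and 2 fell (TGFA and CSF1R), and several of these are genes of blood cells. TNFRSF1B overlapped between treatments, and the other called genes of that list did not. Of 18 tested matrix substrates, FN1, fibronectin, rose (log2 fold change 0.68, SE 0.17, edgeR's adjusted p = 0.0146) and the other 17 did not pass the test. FN1 also overlapped between treatments, at 1362.1 to 2579.9 CPM with DMSO and 2342.7 to 3811.1 CPM with Am580. The median log2 fold changes of these 6 lists lay between -0.15 and 0.22, beside 0.00432 over all genes tested. Of all genes tested, 6.93% were called higher and 7.21% lower, and the lists are small beside these shares.

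The 11 members that were not tested had at most 9 counts in a library, and 1 of them, a locus named ADAM9, had none. They were MMP24, MEP1B, ADAM2, ADAM15_2, the 2 TLL2 loci, 2 further loci of ADAM9 and of MMP28, and 1 further locus of ADAM15. MEP1B, a meprin of kidney and gut in mammals, and ADAM2, a sperm protein in mammals, are in this group. At these depths a library without a count could still have held up to 3, or 0.0637 to 0.111 CPM, a limit that covers counting error only.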

How the data were processed

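The authors used Trimmomatic 0.36 to trim the reads and HISAT2 2.1.0 to align them (AmexG_v3.0.0), merged transcripts with StringTie 1.3.4d, and counted read pairs per gene, by strand, with featureCounts (Subread 1.6.2). They deposited these counts, whole numbers without normalization, and the merged assembly, whose other values are starts and ends. The deposited abundance table was not used. Genes reaching 10 counts in 6 or more libraries were compared with the quasi-likelihood test of edgeR 4.0.16 in its legacy form (R 4.3.3, TMM scaling, no covariates), with Benjamini-Hochberg adjustment over all genes tested and a threshold of 0.05. The script was tested on simulated data. Log2 CPM used a prior count of 2, and standard errors were derived from the F statistic.

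Members and lists were chosen with earlier results of these data known. Named genes were all called members, all tested MMPs and TIMPs, RECK, ADAMTS3, and the 3 members with the highest per-kilobase level among the ADAM, ADAMTS and ADAMTS-like genes. The other members named (ADAM15, ADAM19, ADAM22, ADAM33, ADAMTS2, ADAMTS5, ADAMTS8, ADAMTS9, ADAMTS12, ADAMTS13, ADAMTS15, ADAMTS16 and those not tested), the ratios and the pairs of per-kilobase levels were chosen after their values had been seen. Lengths are merged exon lengths of the assembly, and symbols are those of its reference genes. Some genes of the lists are not reported here by name. Alternatives were DESeq2 1.42.0 (size factors and test), limma-voom 3.58.1, upper-quartile scaling, library size alone, no filter, edgeR's filterByExpr, a replicate block, and each library left out in turn. Same-numbered libraries were not paired, as Am580 and DMSO were given to different animals. Their deviations correlated at -0.172 to 0.235, which cannot show whether the numbers mark a shared processing batch.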

Additional observations from a re-analysis of the deposited data

Results flagged for a closer look

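Over the 44 tested members and both treatments, 8 of 88 groups of 6 libraries had 1 library set apart from the other 5 by a gap beyond Dixon's 95% limit, taken on log2(CPM + 0.1), and chance sets apart about 1 in 20 such groups. In the DMSO libraries these were ADAMTSL2 in replicate 3, at 3.70 CPM against 0.904 to 1.23 CPM in the others, the locus of ADAM11 that rose, in replicate 3, at 0.148 CPM against 0.427 to 0.683 CPM, and ADAM22 in replicate 2, at 0.369 CPM against 0.811 to 1.04 CPM. ADAM28 in replicate 4, at 20.6 CPM against 32.9 to 35.6 CPM, and ADAMTS15 in replicate 6, at 6.88 CPM against 1.66 to 2.30 CPM, were the others with DMSO. In the Am580 libraries they were MMP15 in replicate 5, at 24.4 CPM against 43.4 to 57.3 CPM, MMP23B in replicate 6, at 2.29 CPM against 4.13 to 5.84 CPM, and RECK in replicate 6, at 42.2 CPM against 37.6 to 39.3 CPM.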

How the results depend on the processing

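ADAMTS3, ADAM11, TIMP3, ADAMTSL2 and ADAM23 passed the test in all 20 alternative analyses. The count of members that rose was 5 and ranged from 4 to 7 over all alternatives, and from 4 to 6 with 1 library left out. The count of members that fell was 4, with 2 under library size alone, 2 under limma-voom (MMP14 and TIMP2 not passing in either), 3 under upper-quartile scaling (MMP14 not passing), 5 under DESeq2's test, and 2 to 4 with 1 library left out. Library size alone moved the share of higher genes among all calls from 49.0% to 59.4%. DESeq2's test called 12 of 44 members (and 4707 genes in all), adding ADAM9, ADAMTS16 and ADAMTSL1. Am580 and DMSO share replicate numbers that do not pair the libraries. With a replicate block edgeR called 8 members, 4 higher and 4 lower (3440 genes in all), with ADAMTSL1 added at an adjusted p of 0.0387 and ADAMTS6 (0.0681) and ADAMTS7 (0.0638) not passing.

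Several log2 values near 0 changed sign. ADAM28 was -0.0178 under limma-voom and -0.0235 with the replicate block. With 1 library left out ADAM28 ranged from -0.0751 to 0.159, ADAMTS4 from -0.228 to 0.0396, ADAMTSL3 from -0.282 to 0.0207, ADAMTSL4 from -0.065 to 0.167, TIMP4 from -0.0522 to 0.155, MMP28 from -0.0433 to 0.357, and the difference in the MMP14 to TIMP2 ratio, an alternative added after seeing the data, from -0.027 to 0.0704. The cause was not tested. The choice of animals by duplication goes with the treatment, gene models may be partial, and members under about 1 CPM rest on few counts.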
